A study of Drosophila melanogaster with 19 samples.

Results

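Embryos of *Drosophila melanogaster* rescued by a ΔN *chiffon* transgene were compared with embryos rescued by the full-length (FL) transgene. The comparison used the 4 libraries labelled ΔN and the 3 libraries labelled FL, which are 7 of the 19 libraries of the series. The other 12 libraries were *chiffon* null mutants (null), embryos with another full-length transgene that carries an early stop codon (FLWF24) and parental embryos that drive GFP with act-Gal4 (WT), with 4 libraries each. All 7 libraries were made from hand-picked, GFP-positive embryos of stages 12 to 14, which carried the null alleles *chiffonETBE3* and *chiffonDsRed* over each other, together with Actin-Gal4 and UAS-10XGFP. One copy of the transgene was expressed *in trans* from genomic *chiffon* flanking sequence, so that ΔN and FL embryos differed by design in the coding region of the transgene. Each library was made from total RNA of a small pool of whole embryos and was depleted of rRNA, and the methods call the libraries of a genotype biological replicates. FL libraries carry the numbers 2 to 4 in the count table, which differ from the replicate numbers in the labels, so these columns were matched to the genotype only and the table's numbers are used here. The header of the table holds 1 cell more than its rows, and column names were read in order from the first count column.

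*chiffon* encodes 2 polypeptides with separate functions. Chiffon-A, from the N-terminal part, is the fly Dbf4 protein: it binds the kinase Cdc7 to form the Dbf4-dependent kinase (DDK), which triggers the firing of replication origins. Chiffon-B, from the C-terminal part, binds the acetyltransferase Gcn5 and is the core of the CHAT complex, which acetylates histone H3 and also holds Ada2b, Ada3 and Sgf29. The FL transgene can make both polypeptides and the ΔN transgene only Chiffon-B. The comparison thus asks which transcripts differ between embryos without a zygotic source of Chiffon-A and embryos whose transgene encodes both polypeptides. The paper detected Chiffon-A in early nuclear cycles but not in later-stage embryos, so its presence in the FL embryos used here is not shown. The mean level of *chiffon* transcripts also differed between the groups, as described below, and its part in the other results was not tested. Chiffon-A that mothers deposit in the egg is not removed by this design.

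Gene counts per library ran from 5161281 to 15416304 in ΔN and from 15184670 to 16204777 in FL, so that 3 of the 4 ΔN libraries were shallower than every FL library. Reads with more than 1 place of alignment made up 59.3% to 85.3% of the reads in ΔN and 53.3% to 65.8% in FL. Replicates were correlated at 0.945 to 0.978 in FL and at 0.878 to 0.947 in ΔN, against 0.882 to 0.956 between the groups. At equal depth, 8992 to 9787 genes had a count in ΔN and 9813 to 10662 in FL (exact two-sided permutation p 0.0571, smallest possible 0.0286). Adjusted over 12 library measures, this p was 0.229. Genes with at least 10 counts at equal depth numbered 8402 to 8737 in ΔN and 8509 to 8704 in FL (same test, p 0.514), with overlapping groups. Both reporters were present in every library, with GFP at 78.5 to 104 CPM (read counts scaled to the size of the library) in ΔN and 85.7 to 151 in FL. The part that depth and the share of reads with several places of alignment play in the results was not tested.

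Expression from *chiffon* (chif, FBgn0000307, BDGP6 coordinates 16342430 to 16352628 on the minus strand of chromosome arm 2L) was examined first, since it reports on the labels and on the transgene. In FL libraries 2, 3 and 4 it was at 222.2, 242.9 and 248.8 CPM (read counts scaled to the size of the library). In ΔN libraries 1 to 4 it was at 548.6, 482.8, 497.0 and 250.4 CPM. The groups did not overlap, but ΔN library 4 lay just above the highest FL library while the other 3 ΔN libraries were far higher. The mean was 444.7 ± 132.6 CPM in ΔN (SD, n = 4) and 238.0 ± 14.0 in FL (n = 3), a log2 fold change of 0.90 (SE 0.232) with an unadjusted p of 0.000737. Adjusted over all tested genes, the edgeR quasi-likelihood test did not call it (adjusted p 0.216), whereas DESeq2 did (0.97, adjusted p 0.00581). Without ΔN library 4 the log2 fold change was 1.10 with an adjusted p of 0.0631 in edgeR. For comparison, FLWF24 libraries held 221 to 313 CPM, WT libraries 213 to 270 and null libraries 22.3 to 38.0. Transgene and endogenous reads were counted together, and *Hyls1*, annotated over the same interval and strand, had 0 counts. Reads over exons shared by both genes are left out at default counting settings, so this does not show that *Hyls1* was silent. Such reads would also be missing from chif. The ΔN transgene lacks the first part of the coding region, so its transcript is shorter than that of FL. Since RNA came from whole embryos, more cells that express a gene and more RNA per cell cannot be told apart, here and in every other result.

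Beyond the transgene, the transcriptomes of ΔN and FL embryos differed in few genes at the thresholds used. A gene was called where its Benjamini-Hochberg adjusted p in edgeR was under 0.05 and its log2 fold change was 0.5 or more in size. Of 11978 tested genes, 2 were called (0.0167%), 1 higher in ΔN (0.00835%) and 1 lower (0.00835%). An unadjusted p under 0.05 was found for 1275 genes (10.6%), 459 higher (3.83%) and 816 lower (6.81%) in ΔN. The ΔN and FL libraries did not overlap for 864 genes (7.21%), of which 237 were higher (1.98%) and 627 lower (5.23%) in ΔN. DESeq2 on the same genes called 372 (3.11%), 225 higher (1.88%) and 147 lower (1.23%), and 214 of them had no count in any library of one group. The 2 genes called by edgeR were among them. The median log2 fold change over all tested genes was -0.05.

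*CG10311* (FBgn0038420, chromosome arm 3R, 16350786 to 16357015, minus strand) rose in ΔN. It had 0 counts in each FL library and 82, 36, 26 and 66 counts in ΔN libraries 1 to 4, which is 5.24, 3.64, 2.96 and 12.5 CPM. All 4 ΔN libraries were above all 3 FL libraries, at 6.07 ± 4.37 CPM (SD, n = 4), which is at least 32.4-fold higher than a floor of 3 counts per FL library (edgeR adjusted p 0.00102). The gene was not silent in the other genotypes. It held 2.29 to 19.4 CPM in FLWF24, 4.40 to 23.6 in WT and 6.89 to 83.5 in null, so the FL libraries were the only ones without it. The table gives no function for it, and 16 of its 1086 exon bases lie opposite *Manf*, which held 118 to 337 CPM in ΔN and 141 to 185 CPM in FL. The call was kept in each fit that left out 1 of the 19 libraries, but not in fits of the 7 libraries alone.

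*qvr* (FBgn0260499, chromosome arm 2R, 11442505 to 11451604, plus strand) fell in ΔN. It encodes Quiver, also called Sleepless, a Ly6 protein anchored to the membrane that regulates the Shaker potassium channel. It had 42, 13 and 44 counts in FL libraries 2, 3 and 4 and 0, 1, 0 and 0 counts in ΔN libraries 1 to 4, or 2.69, 0.842 and 2.58 CPM against 0, 0.101, 0 and 0 CPM. The groups did not overlap, and 1 read was all that the 4 ΔN libraries held. Per scaled depth, the counts were 81.6-fold higher in FL (exact 95% interval 14.3 to 3253, counting error only), and the edgeR adjusted p was 0.0359. In the remaining genotypes *qvr* held 5.25 to 11.5 CPM in FLWF24, 4.36 to 21.2 in WT and 23.7 to 49.0 in null, above every FL library. The call was lost when any 1 of ΔN library 3 (adjusted p 0.122), ΔN library 4 (0.0637), FL library 2 (0.142) or FL library 4 (0.0505) was left out, with counts thinned to the smallest library (0.147) and in fits of the 7 libraries alone. It was also lost without FLWF24 library 2 or 4, WT library 4 or null library 2, 3 or 4, at adjusted p from 0.0576 to 0.104. Why these libraries matter was not tested. Of the 11 genes in a list of the Ly6 family with Shaker and its beta subunit, *qvr* was the only one called. *Sh*, the Shaker channel itself, was at 3.14, 2.59 and 20.2 CPM in FL and 49.2, 10.7, 3.75 and 26.6 CPM in ΔN, with overlapping groups (log2 fold change 1.07, unadjusted p 0.166).

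**Figure D1:**
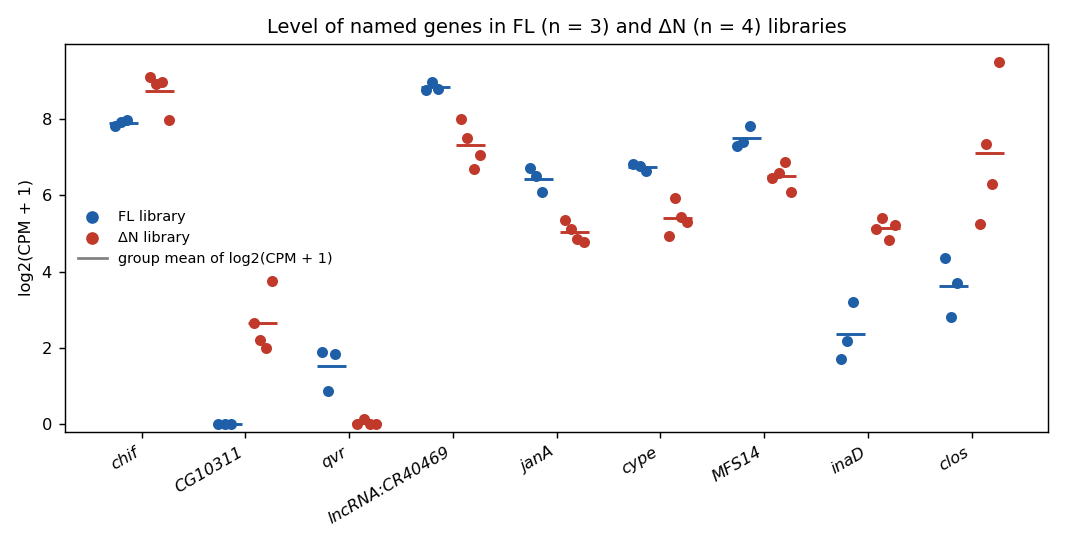
Levels of 9 transcripts in each FL library (numbers 2 to 4) and each ΔN library (numbers 1 to 4), as log2(CPM + 1) on the vertical axis. Points are libraries and bars are group means. *CG10311* is at 0 in all FL libraries, *qvr* at or near 0 in all ΔN libraries, and ΔN library 4 lies next to the FL libraries for chif and far above all others for *clos*.

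The next genes in rank were those with the smallest p among genes at a mean of 5 CPM or more whose libraries did not overlap, with 12 taken in each direction, *chiffon* among those on the higher side. None of them was called by edgeR. *cype*, a subunit of cytochrome c oxidase, was at 112, 108 and 98.1 CPM in FL libraries 2 to 4 and at 29.4, 59.4, 42.2 and 38.3 CPM in ΔN libraries 1 to 4 (log2 fold change -1.31, SE 0.260, adjusted p 0.0839). The ΔN libraries all lay well below the lowest FL library. *MFS14*, named as a transporter of the major facilitator superfamily, was at 154, 167 and 224 CPM in FL and at 85.9, 94.1, 116 and 67.4 CPM in ΔN (-0.99, SE 0.194, adjusted p 0.0839). *janA* was at 104, 90.4 and 66.3 CPM in FL and at 39.8, 33.9, 28.1 and 26.4 CPM in ΔN (-1.38, SE 0.276, adjusted p 0.0839). In both genes the 4 ΔN libraries lay close together below all FL libraries. *Fer1HCH*, the ferritin heavy chain that stores iron, was at 698, 644 and 1036 CPM in FL and at 461, 442, 398 and 346 CPM in ΔN (-0.95, adjusted p 0.130). Its neighbour *Fer2LCH*, the ferritin light chain on the opposite strand, shares 118 exon bases with it. *Fer2LCH* had a log2 fold change of -0.81 (unadjusted p 0.00138), so both chains were lower in ΔN than in FL. The mean of *Fer2LCH* was 457 CPM in ΔN, 501 in WT, 594 in FLWF24, 686 in null and 789 in FL, so FL had the highest mean. The other 8 lower genes were lncRNA:CR40469, *UQCR-6.4*, *RpS27*, *Sf3b5*, *CG14715*, *CG4041*, *Ntf-2* and *CG13551*, with log2 fold changes from -1.43 to -0.87 and adjusted p from 0.130 to 0.204.

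Among these, lncRNA:CR40469 (FBgn0058469, X chromosome, 122493 to 122706) was also very low in the null mutant. It was at 435, 496 and 439 CPM in FL libraries 2 to 4 and at 252, 179.7, 102 and 132 CPM in ΔN libraries 1 to 4 (log2 fold change -1.40, SE 0.296, adjusted p 0.130). The ΔN libraries were all below the FL libraries. FLWF24 libraries held 236 to 497 CPM, WT libraries 144 to 463 and null libraries 6.40 to 10.01, so the ΔN libraries overlapped the lower part of the WT range and lay far above null. This transcript was called in the edgeR fits without ΔN library 1 and with a replicate block, and by DESeq2 (adjusted p 0.00223).

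On the higher side, *DnaJ-1*, *Hsp26*, *Hsp70Ba* and *Hsp68* are heat shock genes and are described with their family. *inaD*, which encodes the scaffold of the phototransduction complex in photoreceptors, was at 2.24, 3.50 and 8.14 CPM in FL and at 33.6, 41.3, 27.4 and 36.4 CPM in ΔN (log2 fold change 2.86, SE 0.550, adjusted p 0.0839). The 4 ΔN libraries lay close together and far above the highest FL library, near the upper end of WT (16.6 to 36.4 CPM). *CG4301* was at 1.15, 1.81 and 1.64 CPM in FL and at 12.8, 5.15, 3.75 and 16.4 CPM in ΔN (2.30, SE 0.438, adjusted p 0.0839), while FLWF24 held 6.61 to 24.5 CPM, WT 8.17 to 30.03 and null 23.9 to 161, so FL was the low group. *clos*, which encodes the eggshell protein Closca, was at 19.5, 6.02 and 12.0 CPM in FL and at 37.2, 159.8, 77.9 and 717 CPM in ΔN (4.04, SE 0.870, adjusted p 0.177). Its ΔN levels were widely spread, with library 4 the highest, and all lay above FL. The other 4 were *Tsp29Fb*, *CG13321*, *CG9752* and asRNA:CR45835. Exons of *CG9752* (3 bases, *RpL29*), *inaD* (7, *RpL23*) and *clos* (37, *RpL31*) lie in part opposite exons of ribosomal protein genes, and 91.2% of asRNA:CR45835 lies opposite *Sec63*.

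The subunits of CHAT and DDK were compared next. Of the 6 genes in this list, 0 were called, 1 had an unadjusted p under 0.05 on the higher side (*chiffon*) and 2 on the lower. Over all genes these shares were 3.83% and 6.81%. *Gcn5*, the acetyltransferase of the complex, was at 86.2, 96.2 and 68.3 CPM in FL libraries 2 to 4 and at 59.8, 50.3, 40.8 and 44.6 CPM in ΔN libraries 1 to 4 (log2 fold change -0.76, SE 0.269, unadjusted p 0.00996, adjusted p 0.372). All ΔN libraries were below all FL libraries, but within or near the ranges of WT (48.4 to 61.8 CPM), FLWF24 (30.6 to 62.7) and null (29.4 to 56.1), so FL was the high group. *Ada2b*, which in one splice form joins CHAT and in another SAGA and ADA, was at 111, 93.3 and 81.4 CPM in FL and at 60.9, 82.4, 66.3 and 49.3 CPM in ΔN (-0.53, unadjusted p 0.0138, adjusted p 0.377). Only ΔN library 2 reached the FL range, and the gene counts do not separate its splice forms. *Ada3* (0.12), *Sgf29* (0.15) and *Cdc7* (-0.03) had log2 fold changes near 0 with overlapping groups.

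The remaining acetyltransferase complexes gave few differences. Of 34 tested genes for further subunits of SAGA, ADA and ATAC and for other histone acetyltransferases, 0 were called. On the higher side 0 had an unadjusted p under 0.05 (against 3.83% of all genes) and on the lower side 2 (against 6.81%). The median log2 fold change was -0.10. *Sf3b5*, a small splicing factor subunit that is also part of SAGA, was at 82.5, 77.5 and 57.9 CPM in FL and at 32.1, 35.7, 22.3 and 12.8 CPM in ΔN (-1.43, SE 0.320, adjusted p 0.130), with the ΔN libraries all below FL. *Atac1*, a subunit of ATAC, was at 13.5, 16.2 and 22.3 CPM in FL and at 2.81, 6.36, 12.9 and 0.189 CPM in ΔN (-1.80, unadjusted p 0.0405, adjusted p 0.453), without overlap but with ΔN library 3 close to FL. Of 13 tested histone deacetylases and their scaffolds, 1 had an unadjusted p under 0.05 on the higher side (against 3.83% of all genes) and 0 on the lower.

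Genes of DNA replication are the natural counterpart of DDK, whose kinase acts on the replicative helicase. Of 40 tested replication genes, 0 were called, 0 had an unadjusted p under 0.05 on the higher side and 3 on the lower, beside 6.81% of all genes on the lower side. *Cdk2*, the partner of cyclin E in S phase, was at 74.8, 56.5 and 40.5 CPM in FL and at 30.8, 42.2, 22.4 and 9.82 CPM in ΔN (log2 fold change -1.09, unadjusted p 0.0083, adjusted p 0.359), and its groups overlapped. *RPA1*, the large subunit of the protein that binds single-stranded DNA, had -0.82 (unadjusted p 0.0154). *Orc4*, a subunit of the origin recognition complex, had -0.87 (unadjusted p 0.0292). The summed level of the list was 3496 to 4790 CPM in FL and 2889 to 3961 CPM in ΔN, so the groups overlapped. For mitosis 25 of 26 genes had a log2 fold change below 0 (against 54.9% of all genes). The median was -0.22, with 0 genes at an unadjusted p under 0.05. In both lists, FL library 4 held the lowest FL level, and mitosis genes took 1918 CPM there against 4049 to 4312 in the other FL libraries. Without it, the medians were -0.42 for replication, with 5 genes on the lower side, and -0.52 for mitosis. Without FL library 2 they were -0.03, with 0 genes, and -0.04. Without FL library 3 they were -0.08, with 1 gene, and -0.09. With a covariate for embryonic stage, the score described with the muscle genes, they were 0.04 and 0.15.

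Most inducible heat shock chaperones had higher levels in ΔN than in FL, although no single member was called. These proteins hold or refold unfolded proteins, and their genes are the classic targets of heat shock factor. Of 16 tested genes in the list, 8 had an unadjusted p under 0.05 on the higher side (against 3.83% of all genes) and 0 on the lower, and 10 did not overlap on the higher side (against 1.98% of all genes). The median log2 fold change was 1.21. DESeq2 called 7 of the 16, all higher in ΔN (against 1.88% of all genes). The 6 near-identical Hsp70 copies made up 4 of the 8, 5 of the 10 and 3 of the 7, so these are not counts of independent genes. The summed level of the list, most of which is the constitutive *Hsc70-4*, was 5601, 5591 and 4090 CPM in FL libraries 2 to 4 and 5410, 4703, 5031 and 5529 CPM in ΔN libraries 1 to 4, so that all ΔN libraries lay within the FL range.

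*DnaJ-1*, the Hsp40 cochaperone of Hsp70, was at 163, 179.7 and 173 CPM in FL libraries 2 to 4 and at 418, 263, 377 and 363 CPM in ΔN libraries 1 to 4 (log2 fold change 1.02, SE 0.223, adjusted p 0.130). Every ΔN library was well above the FL libraries, which were nearly equal. *Hsp26*, a small heat shock protein, was at 5.39, 2.78 and 8.14 CPM in FL and at 58.2, 15.8, 43.6 and 17.6 CPM in ΔN (2.61, SE 0.577, adjusted p 0.130). *Hsp23*, of the same class, was at 23.6, 21.3 and 23.5 CPM in FL and at 79.7, 42.2, 38.6 and 92.5 CPM in ΔN (1.35, SE 0.395, adjusted p 0.286). Both had all ΔN libraries above all FL libraries.

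Hsp70, the main inducible chaperone, is encoded by 6 near-identical copies, among which the counting could split or drop reads. Their summed level was 37.5, 52.1 and 68.1 CPM in FL libraries 2 to 4 and 454, 136, 232 and 205 CPM in ΔN libraries 1 to 4. ΔN library 2 was thus the lowest of its group and still lay above every FL library. The single copies *Hsp70Ba* (log2 fold change 2.80, SE 0.633, adjusted p 0.133) and *Hsp70Aa* (2.43, SE 0.667, adjusted p 0.286) had the smallest p. *Hsp68*, a related inducible Hsp70, was at 13.7, 19.7 and 23.3 CPM in FL and at 172, 47.1, 101 and 64.4 CPM in ΔN (2.27, SE 0.525, adjusted p 0.170). ΔN library 1 was the highest for Hsp70 and *Hsp68*, and without it 7 of the 16 genes had an unadjusted p under 0.05, with a median of 1.08. Over the fits that left out 1 ΔN or FL library, 7 or 8 genes were on the higher side and the median was 1.08 to 1.41.

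Other members of the list, constitutive or not, gave other values. *Hsc70-4*, the cognate Hsp70 of unstressed cells, was at 4649, 4568 and 2919 CPM in FL and at 3213, 3352, 3303 and 3682 CPM in ΔN (log2 fold change -0.25, unadjusted p 0.167), with overlapping groups. *Hsp83*, the fly Hsp90, was at 532, 570 and 584 CPM in FL and at 715, 660, 744 and 873 CPM in ΔN (0.37, unadjusted p 0.0751), where the groups did not overlap but were close. *Hsp27* (0.20) and *stv*, which encodes the cochaperone Starvin (0.58), had overlapping groups. Embryos were picked by hand under a microscope, and handling times are not given in the sources used here. In the other genotypes the summed Hsp70 copies held 35.3 to 306 CPM in FLWF24, 52.4 to 203 in WT and 30.3 to 117 in null, so that 3 of the 4 ΔN libraries lay within the FLWF24 range. *Hsp26* held 4.84 to 46.4 CPM in FLWF24, 18.99 to 32.9 in WT and 7.19 to 12.5 in null, and *DnaJ-1* 195 to 308, 191 to 382 and 139 to 209.8 CPM. For *Hsp26* all WT libraries were thus within the ΔN range. For the Hsp70 copies and *DnaJ-1*, the highest FLWF24 and WT libraries were within it. WT libraries were all above every FL library for *Hsp26* and *DnaJ-1*, but not for the Hsp70 copies.

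**Figure D2:**
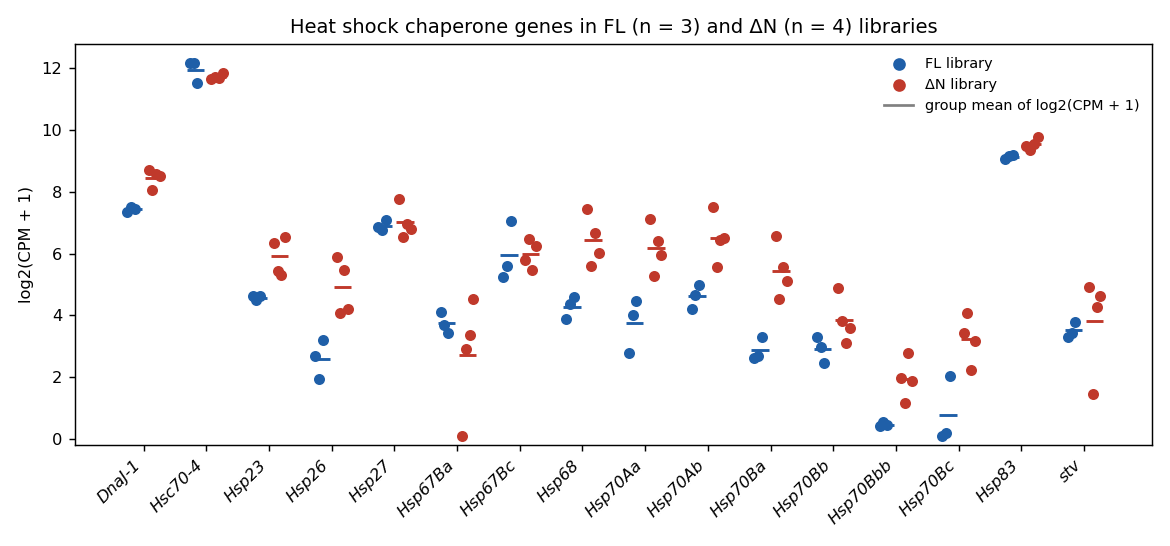
Levels of the 16 tested heat shock chaperone genes in each FL and ΔN library, as log2(CPM + 1) on the vertical axis, with bars at group means. The Hsp70 copies, *Hsp68*, *Hsp26*, *Hsp23* and *DnaJ-1* lie higher in ΔN by group mean. *Hsp27* and *stv* overlap between the groups, and *Hsc70-4* lies at similar levels in both.

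Transcripts of the cytoplasmic ribosome were lower in ΔN for many genes, each by a small amount. Of 89 tested ribosomal protein genes, 0 were called, 33 had an unadjusted p under 0.05 on the lower side (against 6.81% of all genes) and 1 on the higher, and 21 did not overlap on the lower side (against 5.23%). The median log2 fold change was -0.29. *RpL14*, of the large subunit, was at 2502, 2435 and 1808 CPM in FL libraries 2 to 4 and at 1648, 1249, 1219 and 1396 CPM in ΔN libraries 1 to 4 (-0.70, unadjusted p 0.00124). The ΔN libraries were all below FL. *RpL41*, the shortest ribosomal protein, was at 9377, 10766 and 6822 CPM in FL and at 4860, 4215, 2903 and 2168 CPM in ΔN (-1.34, SE 0.351, adjusted p 0.267). The exception was *RpL27A*, at 1051, 1168 and 767 CPM in FL and 1090.5, 1899, 1542 and 3418 CPM in ΔN (0.95, unadjusted p 0.00237, adjusted p 0.286), with ΔN library 4 the highest and overlapping groups. Summed over the list, ribosomal transcripts took 144140, 149870 and 111610 CPM in FL and 105009, 108687, 91454 and 126713 CPM in ΔN, so that ΔN library 4 lay within the FL range. Without FL library 3, 20 of 89 genes had an unadjusted p under 0.05 on the lower side, without FL library 2, 22 of 89, and without FL library 4, 45 of 90.

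Subunits of oxidative phosphorylation, most of them small proteins of the inner mitochondrial membrane, gave similar values. Of 80 tested genes, 22 had an unadjusted p under 0.05 on the lower side (against 6.81% of all genes) and 3 on the higher (against 3.83%), 14 did not overlap on the lower side (against 5.23%), and the median log2 fold change was -0.26. They spread over several complexes. In addition to *cype*, *ND-B14.5B*, a subunit of complex I, was at 58.9, 82.6 and 72.9 CPM in FL and at 42.9, 50.8, 22.3 and 16.1 CPM in ΔN (-1.10, SE 0.300, adjusted p 0.267). *UQCR-6.4*, of complex III, was at 43.4, 39.8 and 31.0 CPM in FL and at 14.1, 15.1, 16.7 and 17.9 CPM in ΔN (-1.27, SE 0.276, adjusted p 0.130). *ATPsynE*, of the ATP synthase, was at 183, 173 and 201 CPM in FL and at 126, 140.2, 63.6 and 86.7 CPM in ΔN (-0.84, SE 0.244, adjusted p 0.286). In these 3 genes no ΔN library reached the lowest FL library. Over the fits that left out 1 ΔN or FL library, 15 (without FL library 3) to 21 genes were on the lower side. Mitochondrial ribosomal proteins had a median of -0.17. Of 71 genes, 7 had an unadjusted p under 0.05 on the lower side (against 6.81% of all genes) and 1 on the higher (against 3.83%). Genes on the mitochondrial genome itself (15 tested) had a median of -0.52 and 0 genes at an unadjusted p under 0.05.

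The genes of these lists are short, with a median exon length of 916 bases for ribosomal proteins and 848.5 for oxidative phosphorylation, and the difference between ΔN and FL varied with exon length over all protein-coding genes at 5 CPM or more. When all tested protein-coding genes were divided into 5 equal bins by exon length, the median log2 fold changes of those at 5 CPM or more were -0.23, -0.11, -0.06, -0.03 and 0.07 from the shortest to the longest bin. In the shortest bin (288 to 1094 bases, 1033 genes), 11.04% had an unadjusted p under 0.05 on the lower side and 2.32% on the higher. The longest bin (3955 to 71820 bases, 1864 genes) had 1.72% and 3.81%. Within the shortest bin, the 58 ribosomal protein genes had a median of -0.36 and the 52 oxidative phosphorylation genes one of -0.34, against -0.22 for the 877 genes of that bin in neither list nor in that of mitochondrial ribosomal proteins. Fragment sizes and RNA integrity are not given in the sources used here, and their part in the result was not tested.

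**Figure D3:**
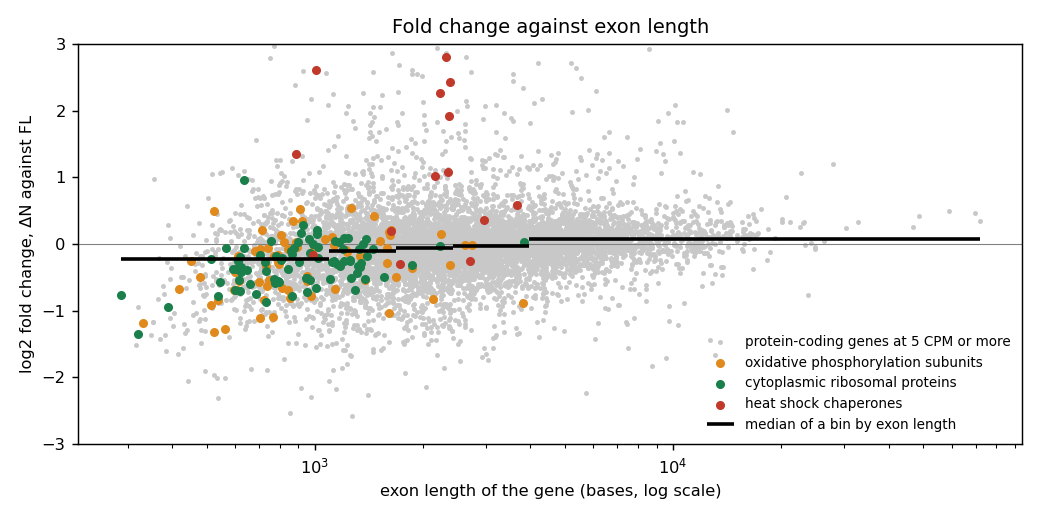
Log2 fold change of ΔN against FL (vertical axis) against exon length in bases (log axis) for 7357 protein-coding genes at 5 CPM or more. A further 97 genes fall outside the axis, black lines mark the median of each bin, and coloured points are ribosomal protein, oxidative phosphorylation and heat shock genes. The medians run from -0.23 in the shortest bin to 0.07 in the longest, and most heat shock genes lie above the medians.

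Since embryos were pooled over stages 12 to 14, genes of late differentiation and of early patterning were compared. The stage score of a library was the mean log2(CPM + 1) over lists of sarcomere and cuticle genes minus that over a list of early patterning genes, so that a higher score means a later transcriptome. It was -4.07, -3.83 and -3.44 in FL libraries 2 to 4 and -2.82, -3.83, -3.28 and -0.62 in ΔN libraries 1 to 4. ΔN libraries 1, 3 and 4 were above every FL library, and ΔN library 2 lay among them. In the other genotypes the score was -3.22 to -1.77 in FLWF24, -3.15 to -0.74 in WT and -1.14 to 2.26 in null. All FL libraries and ΔN libraries 2 and 3 thus lay below every library of those genotypes. The mean difference between ΔN and FL was 1.14 (exact two-sided permutation p 0.229, smallest possible 0.0286). Without ΔN library 4 it was 0.468.

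Sarcomere genes split the ΔN libraries into high and low ones. Of 22 genes, 5 had an unadjusted p under 0.05 on the higher side (against 3.83% of all genes), 1 on the lower (against 6.81%), and 0 were without overlap (against 7.21%), with a median log2 fold change of 0.73. The summed level of the list was 2790 to 4715 CPM in FL and 2384 to 9166 CPM in ΔN. It was 5067 to 16662 CPM in FLWF24, 5386 to 16315 in WT and 14287 to 43658 in null, above every FL library. *Mhc*, the muscle myosin heavy chain, was at 46.6, 43.2 and 179.7 CPM in FL libraries 2 to 4 and at 928, 28.9, 64.5 and 886 CPM in ΔN libraries 1 to 4 (1.85, unadjusted p 0.0464, adjusted p 0.465). ΔN libraries 1 and 4 were high, whereas ΔN library 2 was lower than every FL library. *Prm*, the paramyosin of the thick filament, was at 3.78, 7.38 and 11.4 CPM in FL and at 119, 8.58, 26.2 and 112 CPM in ΔN (2.64, SE 0.562, adjusted p 0.164). Without ΔN library 1, ΔN library 4 or FL library 2 the list's median was 0.26, 0.45 or 0.44, with 3 genes on the higher side each. Without ΔN library 2 it was 1.08 with 11 genes, without ΔN library 3 it was 1.18 with 7, and without FL library 4 it was 1.19 with 9. In a fit with this score as covariate 1 gene was higher and 3 lower at an unadjusted p under 0.05.

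Cuticle genes showed the same split. Their summed level was 763, 813 and 1424 CPM in FL and 2265, 683, 928 and 5369 CPM in ΔN, with 11 of 105 genes at an unadjusted p under 0.05 on the higher side (against 3.83% of all genes) and 8 on the lower (against 6.81%). Their median of 2.09 included 46 genes with no count in any library of one group, and it was 1.10 with those at their bound, set by a floor of 3 counts per library. Summed cuticle levels were 1601 to 2816 CPM in FLWF24, 1450 to 4819 in WT and 5256 to 21219 in null, above every FL library. Early patterning genes had mostly lower levels in ΔN, with 25 of 29 log2 fold changes below 0 (against 54.9% of all genes). The median was -0.29, and 3 genes had an unadjusted p under 0.05 on the lower side (against 6.81% of all genes). Without ΔN library 1 there were 5 such genes, and without FL library 2 the median was -0.17. The summed level of this list was 1723 to 1911 CPM in FL and 1228 to 1772 in ΔN. It was 1334 to 1589 CPM in FLWF24, 1248 to 1533 in WT and 711 to 1747 in null, so FL lay above FLWF24 and WT. The pair-rule gene *slp1* was at 68.6, 73.6 and 42.0 CPM in FL and at 28.3, 33.5, 21.95 and 14.9 CPM in ΔN (-1.28, SE 0.370, adjusted p 0.286), with all ΔN libraries below FL. *hry*, the pair-rule gene hairy (-0.94), and the gap gene *Kr* (-0.91) were the other 2.

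**Figure D4:**
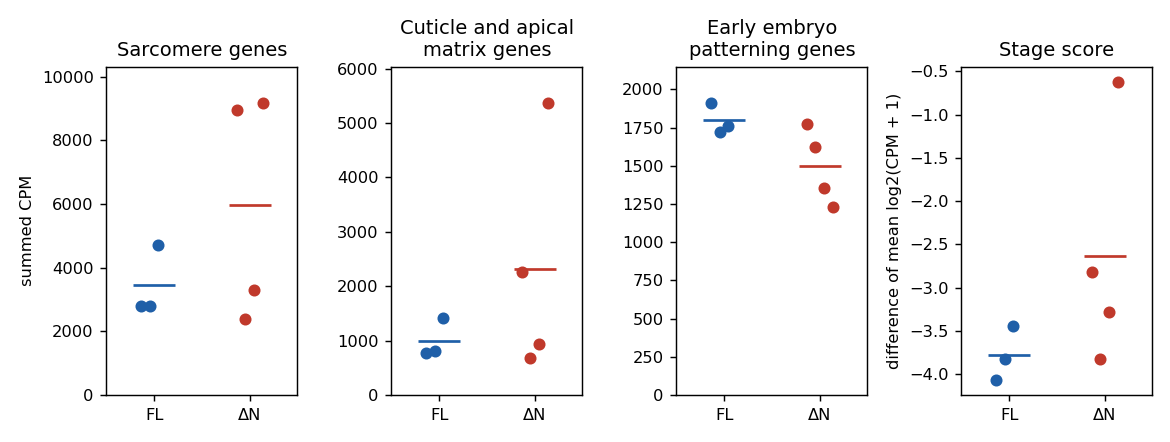
Summed CPM of the sarcomere, cuticle and early patterning lists, and the stage score in units of log2(CPM + 1), for each FL and ΔN library, with lines at group means. ΔN libraries 1 and 4 stand out with high sarcomere and cuticle levels, and ΔN libraries 2 and 3 lie near the FL libraries.

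Neurons mature over the same stages. Of 14 genes of postmitotic neurons, 3 had an unadjusted p under 0.05 on the higher side (against 3.83% of all genes) and 0 on the lower, with a median of 0.23. The median was 0.01 without ΔN library 1, with 1 gene on either side, 0.04 without FL library 2 and 0.05 without FL library 3, with 1 gene on the higher side each, and 0.64 without FL library 4, with 4. Without ΔN library 2, 1 gene was on the higher side. *tau*, which binds microtubules in axons, was at 4.36, 3.95 and 2.05 CPM in FL and at 6.97, 6.06, 7.39 and 13.2 CPM in ΔN (1.17, SE 0.406, adjusted p 0.360), without overlap. Of 22 synaptic genes, 4 had an unadjusted p under 0.05 on the higher side (against 3.83% of all genes) and 0 on the lower (median 0.32). *ChAT*, which makes the neurotransmitter acetylcholine, was at 0.898, 1.68 and 0 CPM in FL and at 14.3, 4.65, 5.57 and 7.18 CPM in ΔN (3.12, SE 1.04, unadjusted p 0.00657, adjusted p 0.341), so that no ΔN library was as low as FL. The calcium channel *cac* (1.05), the vesicle protein *Rab3* (0.80) and the adhesion protein *Nrx-1* (1.84) had overlapping groups. Without FL library 3, or in a fit with the stage score as covariate, 1 of the 22 synaptic genes had an unadjusted p under 0.05. Without ΔN library 1, 2 were higher and 2 lower, and without FL library 2, 2 were higher.

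Basement membrane, laid down largely by hemocytes, and the mevalonate pathway, which makes isoprenoids, each had a few genes at higher levels in ΔN. Of 16 genes of hemocytes and basement membrane, 2 had an unadjusted p under 0.05, both higher (against 3.83% of all genes): *Ndg*, the fly nidogen, at 193, 138 and 246 CPM in FL and 333, 248, 272 and 316 CPM in ΔN (0.61, adjusted p 0.377), and *Ppn*, papilin (0.56, adjusted p 0.444). The ΔN libraries lay just above FL for *Ndg* and overlapped for *Ppn*. Without FL library 3, 0 of the 16 had an unadjusted p under 0.05, and without FL library 4, 8 were higher and 1 lower. Of 9 tested genes of the mevalonate pathway, 2 had an unadjusted p under 0.05 on the higher side (against 3.83% of all genes) and 0 on the lower. Without ΔN library 1 or 4, or without any 1 of the FL libraries, 1 did, as in 8 of the 12 fits that left out a library of another genotype. *Hmgs*, which encodes HMG-CoA synthase, was at 49.6, 47.1 and 48.7 CPM in FL and at 136, 48.3, 63.2 and 62.1 CPM in ΔN (0.76, unadjusted p 0.0491, adjusted p 0.468), with ΔN library 2 within the FL range.

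In the remaining lists 0 genes were called. Hox genes (8 tested, median 0.02), the epidermis (15, 0.17), trachea (9, 0.25), fat body (7, -0.65), ecdysone (22, 0.10), glycolysis (13, -0.11), apoptosis (13, -0.15) and replication-independent histone (5, -0.08) lists, and the list of germ cells and maternal RNA (13, -0.35), had 0 genes at an unadjusted p under 0.05 in either direction. Glia (13) and salivary gland (8) had 1 higher each, and neuroblasts (17), myoblasts (17) and dosage compensation (9) had 1 lower each. Voltage-gated channels (18) had 3 higher and 1 lower, midgut (23) 2 higher and 2 lower, and small nucleolar RNAs (121) 1 higher and 3 lower. Over all genes, 3.83% were higher and 6.81% lower at this p.

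Genes named as antisense RNAs, a class singled out after their values were seen, had a higher summed level in ΔN, to which single libraries contributed unequally. Their transcripts run across genes on the opposite strand, and they were tested as single genes. Of 316 tested, 0 were called, 44 (13.9%, against 3.83% of all genes) had an unadjusted p under 0.05 on the higher side and 15 (4.75%, against 6.81%) on the lower, and 29 did not overlap on the higher side (against 1.98%). The median log2 fold change was 1.45, or 1.28 with the 79 genes that had no count in any library of one group at their bound. Their summed level was 447, 463 and 480.2 CPM in FL libraries 2 to 4 and 659, 1234, 902 and 2422 CPM in ΔN libraries 1 to 4. Every ΔN library was above every FL library, and library 4, the shallowest, was the highest by a wide margin. Relative to the FL mean, the median gene of the class was at -0.10 and 0 on the log2(CPM + 1) scale in ΔN libraries 1 and 3, and at 0.52 and 0.69 in ΔN libraries 2 and 4. At equal depth 132, 230, 190 and 234 of the 490 genes of the class had a count in ΔN libraries 1 to 4, and 203, 210 and 143 in FL libraries 2 to 4, with overlapping groups. Without ΔN library 4, 35 of 305 were higher and 11 lower at an unadjusted p under 0.05, with a median of 1.02. The range was 481 to 735 CPM in FLWF24, 549 to 998 in WT and 375 to 557 in null. Genes named as long noncoding RNAs, by contrast, had 11 of 508 at an unadjusted p under 0.05 on the higher side (against 3.83% of all genes) and 72 on the lower (against 6.81%).

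The antisense level was then set against that of the genes on the other strand. A set of 210 antisense genes had at least 50% of their exon bases opposite exons of 207 partner genes. The partners were at a median log2 fold change of 0.06, with 9 higher and 10 lower at an unadjusted p under 0.05. The antisense genes were at 1.74, with 35 higher and 7 lower. Over all genes, 3.83% were higher and 6.81% lower. As a percentage of the partners' summed CPM, the antisense genes held 1.20%, 1.17% and 1.20% in FL libraries 2 to 4 and 1.74%, 3.91%, 2.68% and 7.24% in ΔN libraries 1 to 4. The FL libraries were nearly equal, and all ΔN libraries were above them. The other genotypes ranged from 1.21% to 1.95% in FLWF24, 1.39% to 2.93% in WT and 0.82% to 1.32% in null. htseq-count at its default settings assigns reads by strand, and whether the library kit keeps the strand is not given in the sources used here. In FL libraries 2 and 3, *CG2962* was at 0 CPM, while *ATPsyndelta*, opposite all of its exon bases, was at 215 and 183 CPM. Values of genes that overlap on opposite strands remain uncertain, and the part of strand in the antisense levels was not tested.

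**Figure D5:**
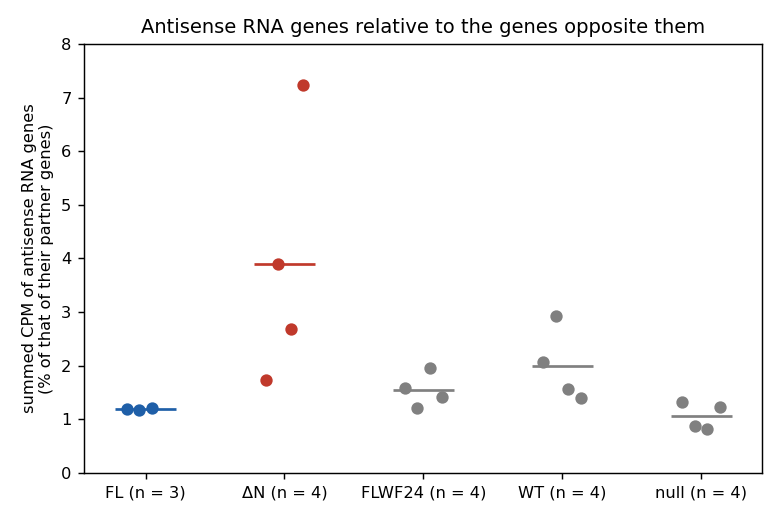
Summed CPM of 210 antisense genes as a percentage of the summed CPM of their 207 partner genes on the opposite strand (vertical axis), by library and genotype, with lines at group means. FL libraries lie at 1.17% to 1.20%, and ΔN libraries between 1.74% and 7.24%, with ΔN library 4 the highest of all 19 libraries.

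A gene was taken as near absent from a group when none of its libraries held more than 3 counts, and present in the other when every library held more than 3 counts with a mean of at least 1 CPM. By this rule 13 genes were near absent from FL and present in ΔN, 7 of them antisense RNAs, and 97 were near absent from ΔN and present in FL, 1 of them an antisense RNA and 20 long noncoding RNAs. At equal depth the numbers were 15 and 54. The 2 called genes were among them. *CG2962* had the highest level, with 0, 0 and 2 counts in FL libraries 2 to 4 and 265, 0.808, 22.4 and 775 CPM in ΔN libraries 1 to 4. All of its 1358 exon bases lie opposite *ATPsyndelta*, a subunit of the ATP synthase, and its ΔN levels differed widely between libraries, with ΔN library 2 near the FL level (adjusted p 0.313). *CG15731* (30.7, 2.93, 5.91 and 144 CPM in ΔN, 0 counts in FL) and the tetraspanin gene *Tsp29Fb* (23.5, 0.707, 2.39 and 21.3 CPM in ΔN, 0 counts in FL) were high in the same 2 ΔN libraries, 1 and 4. In null, *CG2962* held 595 to 5001 CPM, *CG15731* 70.9 to 765 and *Tsp29Fb* 30.6 to 242, above most ΔN libraries. FLWF24 held 0 to 63.7 CPM of *CG2962*, 0 to 23.7 of *CG15731* and 0.141 to 78.8 of *Tsp29Fb*, and WT 4.76 to 109.8, 0 to 7.78 and 0.0778 to 41.8 CPM, so the ΔN libraries overlapped both genotypes for all 3 genes. asRNA:CR44137, 52.3% of which lies opposite *Csk*, was more even, with 0 counts in FL and 6.65, 7.07, 11.1 and 18.7 CPM in ΔN, at least 58.1-fold higher than the floor (adjusted p 0.263). In the other direction, *CG1958* was at 4.62, 1.49 and 13.5 CPM in FL and at 0, 0.101, 0 and 0 CPM in ΔN, with 1 read in all ΔN libraries (adjusted p 0.313).

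Genes around *chiffon* and around the 2 called genes were examined last. Of the 5 nearest genes on either side, 9 were tested next to *chiffon*, 7 next to *CG10311* and 9 next to *qvr*, and 0 were called in each set. Next to *chiffon*, *CG4455* (log2 fold change -0.94, unadjusted p 0.0121) and *CG4440* (-2.31, unadjusted p 0.0191) were lower in ΔN. *CG4440* was at 427, 318 and 53.2 CPM in FL and at 68.5, 67.3, 67.9 and 5.10 CPM in ΔN, with FL library 4 within the ΔN range, so its groups overlapped. Next to *CG10311* and *qvr*, 2 and 1 genes had an unadjusted p under 0.05 (against 10.6% of all genes).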

How the data were processed

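The deposited table holds raw read counts per gene. Per the methods, the authors trimmed the reads with Trimmomatic, aligned them to the BDGP6 genome with HISAT2 and counted them with htseq-count (HTSeq 0.11.1) at default settings, which assign reads by strand and leave out reads with several places of alignment. Low reads per gene, strand and shared exons can therefore move a value. The deposited columns named C are the ΔN libraries.

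From these counts, spike-ins, reporters and 138 rRNA genes were removed and genes were filtered by filterByExpr, which left 11978. CPM values were scaled by TMM. A quasi-likelihood model in edgeR 4.0.16 (R 4.3.3) was fitted to all 19 libraries with genotype and 1 RUVs factor, and p-values were adjusted over all tested genes by the Benjamini-Hochberg method. The fit was tested on simulated counts. DESeq2 1.42.0, other scalings, filters and factors, thinned counts, fits of the 7 libraries alone, a replicate block, a stage covariate and leaving out each library were the alternatives. List medians are also given with a floor of 3 counts per library. Intervals and floors cover counting error only, and the sources used here mention no molecular identifiers. Members and lists were chosen with earlier results of these data known. Named genes were *chiffon*, all called genes, the 12 non-overlapping genes with the smallest p in each direction at 5 CPM or more, up to 4 genes a list and those with a role the text explains, up to 10 near-absent genes, and neighbours of the called genes and *chiffon*. *Sh*, *RpL27A*, *Mhc*, the named heat shock genes and *CG4440* fall under these roles or neighbours. IDs were matched to Ensembl 115 annotation (17710 of 17807), and 6 of 515 list entries did not match. Some items are not reported here.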

Additional observations from a re-analysis of the deposited data

Results flagged for a closer look

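Among the named genes, 83 were examined for a single ΔN library far from the other 3, and 3 stood apart by a gap that took up most of the group's range. Chance alone marks about 1 group in 20. *qvr* was at 0.101 CPM in ΔN library 2 and at 0 in the other 3, a difference of 1 read. *Nrx-1*, the neuronal adhesion protein neurexin, was at 37.4 CPM in ΔN library 1 and at 3.74 to 9.06 CPM in the others. *Ppn*, papilin of the basement membrane, was at 756 CPM in ΔN library 2 and at 1217 to 1245 CPM in the others. FL, with 3 libraries, was not examined.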

How the results depend on the processing

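With other settings, 9 genes were called with 2 RUVs factors, 4 with a replicate block, 4 with the stage score as covariate and 1 with thinned counts, and 372 by DESeq2. In fits of the 7 libraries alone edgeR called 0 genes, with the RUVs factor (651 genes at an unadjusted p under 0.05) and 0 without it (510). Leaving out 1 library gave 1 to 13 genes, with 13 without ΔN library 1. The log2 fold change of *chiffon* was 0.97 in DESeq2, where it passed the threshold, and 0.78 to 1.10 over the leave-one-out fits. No direction reversed among *chiffon*, *CG10311* and *qvr*. The cause of these changes was not tested. Libraries of the same number deviated together at r of 0.12, 0.07 and 0.13, so the numbers were not taken to pair the samples, and not every library correlated best with its own number. With the replicate block *chiffon* had 0.94 (adjusted p 0.266). The depth of ΔN library 4 limits genes at low counts.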
